A study of Mus musculus with 2 samples.

Results

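Keratin-expressing, non-mucous cells were picked out of 2 single-cell RNA libraries of mouse gingiva by their transcripts, and 104 of 21208 cells met the rule: 98 of 10260 in the diabetic library and 6 of 10948 in the normoglycemic library. A cell entered with at least 10 UMIs (unique molecular identifiers, each counting 1 captured RNA molecule) per 10000 from 6 keratins, namely Krt5, Krt14, Krt7, Krt8, Krt18 and Krt19. It also had at most 1 UMI of Ptprc (CD45), under 3% of its UMIs from S100a8 and S100a9, and under 10 UMIs each from mucous, mural and collagen gene sets. Since measured keratin and exclusion genes chose the cells, every gene value below describes them and none is tested.

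The mice of both libraries carried the genotype CD11CCre-/-;FoxoLL on a mixed C57B6 and FVB background, without a Cre allele, with loxP sites around exon 2 of Foxo1 and, per the labels, a normal Foxo1 protein. Diabetes came from streptozotocin, a toxin of pancreatic beta cells. Gingival inflammation was provoked with bacteria for 2 weeks and a wait of 2 weeks followed. Cells of 4 mice were combined for each library, dead (DAPI+), CD31+ and Ter-119+ cells were sorted away, CD45+ cells were selected with a 20% enrichment of CD11c+CD45+ cells, and 10000 cells were loaded. The sort was thus aimed at leukocytes, whereas the cells described here carry at most 1 Ptprc UMI by rule. With 1 library a condition there is no replicate and no test between conditions. Intervals given below are 95% intervals that cover counting error only, and fewer cells of a type, less RNA per cell and a different yield of the sort cannot be told apart.

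Keratins form the intermediate filaments of epithelial cells and are made in pairs of 1 type I and 1 type II chain. The basal cells of stratified epithelia such as gingiva make Krt5 with Krt14, cells on their way to the surface add other pairs such as Krt4 with Krt13, and Krt6a, Krt16 and Krt17 are known as keratins of wounded or activated epithelium. Krt8 with Krt18, joined by Krt7 and Krt19, is the keratin set of simple and glandular epithelia, including salivary glands. The Dcpp genes (demilune cell and parotid protein) encode secreted proteins of mouse salivary glands.

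Among the cells was a secretory group filled with RNA of 3 nearly identical Dcpp genes and of Wfdc18. A stratified group was defined in part by Krt5. The sequences below belong to these genes. Each is the 120 bases that end just before a gene's start in RefSeq (assembly GRCm38.p6), 5′ to 3′ on the gene's strand, and capitals mark TATAA, the core letters of a TATA box.
Dcpp1: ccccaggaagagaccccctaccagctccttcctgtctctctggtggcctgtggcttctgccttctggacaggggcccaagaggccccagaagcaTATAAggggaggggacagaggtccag
Dcpp2: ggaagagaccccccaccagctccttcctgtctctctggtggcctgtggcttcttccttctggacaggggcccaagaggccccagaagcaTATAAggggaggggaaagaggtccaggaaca
Dcpp3: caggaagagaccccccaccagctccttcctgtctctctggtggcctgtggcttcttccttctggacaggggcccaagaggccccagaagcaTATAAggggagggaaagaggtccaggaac
Wfdc18: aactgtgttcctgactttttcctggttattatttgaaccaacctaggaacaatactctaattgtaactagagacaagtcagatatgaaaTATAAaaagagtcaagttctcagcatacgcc
Krt5: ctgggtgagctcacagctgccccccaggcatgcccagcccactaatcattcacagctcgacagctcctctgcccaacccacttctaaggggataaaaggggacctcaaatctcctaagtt
These lie at chr17:23880756-23880875 (Dcpp1, plus strand), chr17:23898602-23898721 (Dcpp2, plus), chr17:23917338-23917457 (Dcpp3, plus), chr11:83708884-83709003 (Wfdc18, plus) and chr15:101712906-101713025 (Krt5, minus). TATAA begins at position -26 from the gene start in Dcpp1, -31 in Dcpp2, -29 in Dcpp3 and -31 in Wfdc18, and these letters are not in the Krt5 window. Over the 300-base RefSeq windows that run past the start, the Dcpp genes were 93.7% (Dcpp1 and Dcpp2), 95.0% (Dcpp1 and Dcpp3) and 96.3% (Dcpp2 and Dcpp3) identical by edit distance. TATAA on the gene's strand was present in 8.53% of all 32851 such windows, and in 11.8% when its reverse complement TTATA was counted too. Windows of a list of serous acinar genes, which holds the 3 Dcpp genes, had it in 12 of 21 (57.1%), and windows of a basal layer list in 1 of 18 (5.56%). A match describes letters and is no evidence of binding. Only exact letters were counted, so the stretch ataaaa in the Krt5 window was not. Whether any of these letters relate to the RNA levels was not tested. Because the Dcpp genes are so alike, and because the annotated Dcpp2 (chr17:23880880-23900788) overlaps Dcpp1 (chr17:23880876-23882853), the division of reads among the 3 is uncertain and their sum is the safer value.

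Members made up 0.955% of the diabetic cells (exact interval 0.776 to 1.16%) and 0.0548% of the normoglycemic cells (0.0201 to 0.119%). The difference was 0.90 percentage points (Newcombe interval 0.718 to 1.11) and the ratio 17.4 (7.73 to 48.6), which compares these libraries and not the conditions. Mucous cells, which pass the same keratin minimum and fail only at the mucous genes, were split 65 to 4 in the same direction. Near the threshold, the lowest diabetic members had 11.8, 12.8 and 13.3 keratin UMIs per 10000 and the highest cells outside had 9.62, 9.56 and 9.48. In the normoglycemic library the lowest member had 14.5, which was 1 UMI among 688, and the highest cell outside 8.69. Of the diabetic members 5 had under 3 keratin UMIs. No cell barcode of a member occurred in both libraries, and 32 barcodes did among all cells.

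The given markers Krt5, Krt14, Krt8 and Krt18 were all found, but not in the same cells, so the name covers distinct groups. The share of Krt5 and Krt14 in the 6 keratins was at least 0.8 in 80 diabetic members (81.6%), called stratified-keratin cells here, and at most 0.2 in 17 (17.3%), called simple-keratin cells. A single cell lay between them, at 0.645, with 7 Krt5, 13 Krt14, 3 Krt8 and 7 Krt18 UMIs among 9737 and with 11 UMIs of Cldn4. All 6 normoglycemic members were stratified-keratin cells. Of the 17 simple-keratin cells, 14 drew over 1% of their UMIs from Dcpp1, Dcpp2 and Dcpp3 and are described below as Dcpp-positive.

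**Figure D1:**
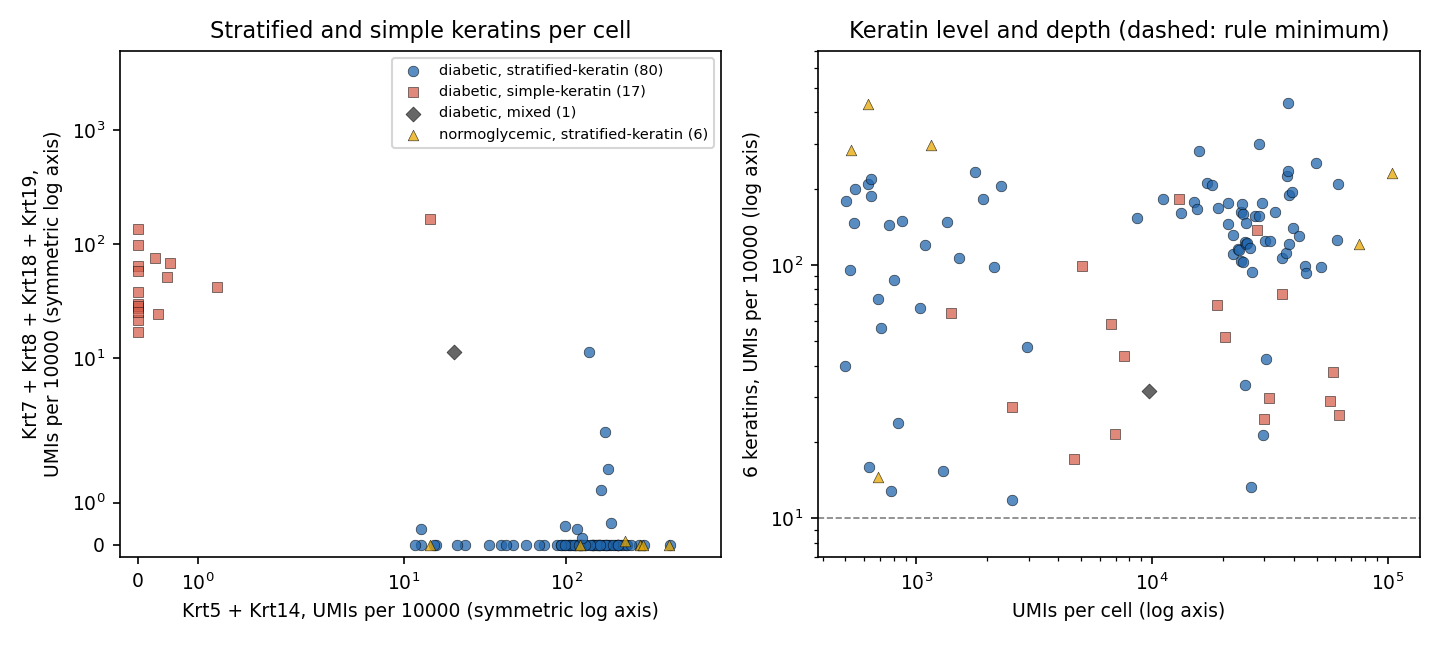
Left, Krt5 plus Krt14 against Krt7, Krt8, Krt18 and Krt19 for each of the 104 cells, in UMIs per 10000 on symmetric log axes; right, all 6 keratins per 10000 against UMIs per cell on log axes, with the minimum of the rule dashed. The 80 stratified-keratin and 17 simple-keratin diabetic cells lie along different axes with 1 mixed cell between them, and the 6 normoglycemic cells lie with the stratified-keratin cells.

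Members were deep cells, with a median of 21523.5 UMIs (500 to 62450) against 4612 in the other diabetic cells and 2433 in the mucous cells, and with a median of 3555.5 genes. Depth within the stratified-keratin cells had a gap: 53 cells held 8607 to 61268 UMIs (median 26367, 4480 genes) and 27 cells 500 to 2958 (median 802, 430 genes). The median mitochondrial share was 3.15% in the deep cells and 0.364% in the shallow ones. Leukocyte RNA was much lower in the deep cells: the 10 leukocyte markers summed to 114 counts per 1000000 UMIs (CPM) there, 5019 CPM in the shallow cells and 15419.6 CPM in the other diabetic cells, and none of the 10 was at 0 in either. The shallow cells were uneven, with a median sum of 12.5 per 10000 UMIs and a highest of 318. Antibody capture features, 4 in number and with targets that the labels do not name, had a median total of 1 count in diabetic members and 4 in other diabetic cells.

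Stratified-keratin cells were first read against the 10162 other diabetic cells. Of 6525 genes with at least 20 CPM in either set, 630 (9.66%) were at least 4-fold higher in the stratified-keratin cells and 1139 (17.5%) at least 4-fold lower, with a median log2 ratio over all genes of 0.22. For all 98 members together the counts were 514 of 6307 (8.15%) higher and 1118 (17.7%) lower. Ratios of this size follow in part from choosing cells by keratins, and the counts serve as the background for the lists below.

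The basal layer genes were the clearest block. Of the 15 listed, 14 were measured and all 14 were at least 4-fold higher, with a median log2 ratio of 6.48. Krt14 stood at 10130.1 CPM in stratified-keratin cells against 25.3 in the others, a ratio of 400 (381 to 419), and Krt5, which chose the cells with it, at 4928 against 11.4. Krt15, a keratin of basal cells that the rule did not use, stood at 1203 against 2.38 CPM, a ratio of 504 (433 to 591). Trp63, the transcription factor needed to form stratified epithelium, was at 212 against 0.843 CPM, and was detected in 63.8% of the cells. The adhesion genes that tie basal cells to their basement membrane followed: Col17a1, a hemidesmosomal collagen, was at 486 against 1.46 CPM (ratio 332), Itgb4 at 192 against 2.50 (76.6) and Itga6 at 352 against 17.7 (19.9). Igfbp2, a secreted binder of insulin-like growth factors, was at 723 against 5.44 CPM (133).

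Genes of the upper layers were present in the same pool of cells. Of 18 measured genes of the suprabasal and cornifying list, 16 were higher, with a median log2 ratio of 6.27. Lgals7 (galectin-7, a lectin of stratified epithelium) was at 5690 against 16.4 CPM and was found in 92.5% of the cells, and Sfn (14-3-3 sigma) at 2148 against 7.11 CPM in 86.2%. Krt13 was at 2558 against 33.2 CPM (ratio 77.1, 73.3 to 81.0) and its partner Krt4 at 421 against 18.5 (22.7). The activation-associated keratins Krt6a (1163 against 4.00 CPM), Krt17 (877 against 4.81) and Krt16 (264 against 1.62) had ratios of 290, 182 and 163. Terminal products were scarce or absent: Flg, Sprr2a1, Cdsn and Krt84 had no UMI in any diabetic member, and Krt10, a keratin of cornifying epithelium, was at 12.2 CPM in the deep cells and reached 1 UMI per 10000 in none of the 53. Klf4, a transcription factor of differentiating layers, was at 232 CPM against 243 in the other cells.

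Junction genes separated by class. All 11 measured desmosome genes were higher (median log2 ratio 6.80), among them the desmosomal cadherins Dsg3 at 275 against 0.751 CPM and Dsc3 at 201 against 0.632 CPM, the plaque proteins Dsp at 679 against 4.74 CPM and Pkp1 at 183 against 1.03 CPM, and Perp at 850.4 against 7.64 CPM. In the adherens, tight and gap junction list only 3 of 8 measured genes passed 4-fold, with a median log2 ratio of 1.62. Gja1, the gap junction protein connexin 43, led that list with a ratio of 11.1 (10.1 to 12.3), whereas the tight junction gene Cldn3 had no UMI. Of 12 measured hemidesmosome and basement membrane genes 8 were higher and 1 lower.

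Epithelial transcription factors were higher in 11 of 12 measured cases (median log2 ratio 5.86), Klf4 being the exception. Pitx1, a homeobox factor of the oral region, was at 231 CPM (ratio 58.8) and Sox2 was at 88.2 CPM (43.8). Ovol1, a regulator of epithelial differentiation, was at 61.1 CPM against 0.184 and Klf5 at 415 against 7.21. The serine protease inhibitor Serpinb5 was at 352 CPM (ratio 214), the kallikrein Klk10 at 85.1 (258), the glutathione peroxidase Gpx2 at 397 (284) and the metallothionein Mt4 at 2547 (95.6).

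Markers of other oral epithelial cell types were sparse. The junctional epithelium, which attaches gum to tooth, is marked by Odam and Amtn: Amtn had no UMI, and 198 of the 201 Odam UMIs of diabetic members sat in 1 cell. The smooth muscle genes of the myoepithelial list were low (Acta2 12 CPM against 275 in the other cells) or at 0 (Cnn1, Myh11), partly because mural genes were capped by the rule. Merkel and taste cell markers summed to 90.6 CPM in the deep cells, with 5 of 8 at 0, and to 8.96 CPM in the other diabetic cells. That list holds Sox2, named above among the epithelial transcription factors. Fibroblast markers summed to 256 CPM in the deep cells and 2078 in the other diabetic cells, and endothelial markers to 5.78 CPM with 8 of 10 at 0.

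Immune and inflammatory genes were mostly lower in the stratified-keratin cells than in the leukocyte-rich remainder. Of 20 measured epithelial cytokine and chemokine genes 15 were at least 4-fold lower and 2 higher, with a median log2 ratio of -3.96. The neutrophil chemoattractant Cxcl2 stood at 361 CPM against 27430 and Il1b at 134 against 11032. The higher genes were Hbegf, a ligand of the epidermal growth factor receptor, at 181 against 18.1 CPM (10.0, 8.78 to 11.4), and Tgfb2 at 30.3 against 6.89 CPM (4.39, 3.20 to 5.91). Ccl20, a chemokine for CCR6-bearing cells, was under the level minimum, and 25 of its 29 member UMIs came from 1 cell. All 7 measured MHC class II genes were lower (median -6.61) and 1 of 11 MHC class I genes (median -1.23), with H2-D1 at 947 against 2465 CPM and B2m at 391 against 1416. Of 14 measured antimicrobial genes 11 were lower, and the exception above 4-fold was Defb1, a beta-defensin, at 274 against 0.567 CPM (ratio 483, 353 to 677).

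An interferon signature was not spread over the cells. Of 16 measured interferon-stimulated genes none was 4-fold higher and 1 was lower (median -0.75), and Ifitm3 stood at 1198 CPM against 1185. A single stratified-keratin cell carried 469 of the 515 Cxcl10 UMIs of all diabetic members (91.1%), and 91.6% of Rsad2 and 94.9% of Ifit3 also came from 1 cell. The pooled Cxcl10 level of 310 CPM against 103 therefore describes 1 cell: Cxcl10 was detected in 3.75% of the stratified-keratin cells.

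Proliferation genes were present in a minority. Of 18 measured cell cycle genes 9 were at least 4-fold higher than in the other cells and none lower (median 2.09), with Top2a at 182 against 34.7 CPM and Ccnb1 at 36.6 against 2.69. Among the 53 deep cells Mki67 reached 1 UMI per 10000 in 11, and 7 cells had both Mki67 and Top2a at that level. Genes of insulin and FOXO signalling, listed because the study concerns diabetes in Foxo-floxed mice, gave 3 of 19 higher and 2 lower (median -0.18); the binding proteins Igfbp2 and Igfbp3 (102 against 8.67 CPM) were among the higher ones. None of 19 unfolded protein response genes passed 4-fold (median -0.92), and of 16 immediate early genes 1 was higher and 2 lower.

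**Figure D2:**
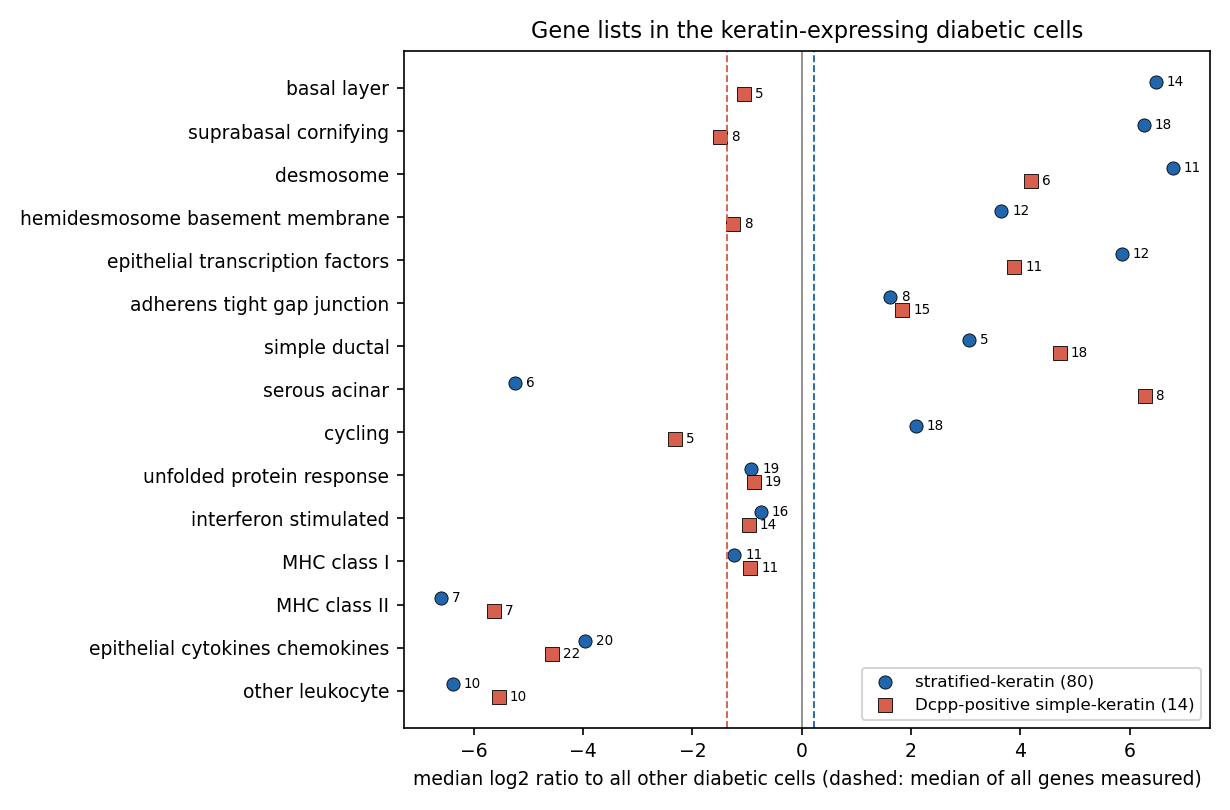
Median log2 ratio to all other diabetic cells of each gene list, for the 80 stratified-keratin cells (circles) and the 14 Dcpp-positive simple-keratin cells (squares); numbers give the genes measured, the grey line marks 0 and dashed lines the median of all genes measured (0.22 and -1.36). The basal layer, suprabasal and desmosome lists lie above 6 in the stratified-keratin cells, and the serous acinar list lies at -5.24 in those and at 6.28 in the Dcpp-positive cells.

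Detection shares depended on depth, so each cell was also thinned to 1000 UMIs, which left 64 of the 80 stratified-keratin cells. Krt5 was then found in 95.3% and Krt14 in 98.4%, against 0.386% and 0.788% of leukocytes thinned alike. Krt6a went from 75% to 50%, Krt13 from 66.2% to 48.4%, Krt15 from 58.8% to 39.1% and Krt17 from 53.8% to 25%. These thinned shares were far above those of leukocytes, which were 0.290% for Krt13, 0.257% for Krt6a, 0.0483% for Krt15 and 0.177% for Krt17. Dcpp1 behaved otherwise: it was seen in 45.0% of stratified-keratin cells and 43.7% of leukocytes, and after thinning in 6.25% and 14%. Its share in stratified-keratin cells was thus close to or below that of leukocytes and is not read as expression. It stood at 34.7 CPM in the deep and 886 CPM in the shallow stratified-keratin cells and at 172 CPM in leukocytes, and no profile of empty droplets was measured. Epcam, in 53.8% of cells unthinned and 4.69% thinned (3 of 64 cells), stood at 2.19% in thinned leukocytes.

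The 53 deep stratified-keratin cells shared some genes and varied widely in others. Lowest, median and highest values per 10000 UMIs were 11, 49.0 and 97.9 for Krt5, and 6.10, 56.4 and 105 for Lgals7, so every deep cell had both. Krt14 ranged over 1.90, 91.7 and 337. In contrast Krt13 ran from 0 over 12.8 to 168, Mt4 from 0 over 10.3 to 151, Krt15 from 0 over 5.07 to 59.1, Krt6a from 0 over 6.70 to 47.9 and Krt17 from 0 over 1.23 to 130. Krt13 and Krt15 each had a UMI in 41 cells, Krt6a in 48, Krt17 in 37, Krt4 in 27 and Krt16 in 25. A single cell held 489 of the 1409 Krt17 UMIs of the members (34.7%), so the pooled Krt17 level leans on it, while no cell held over 9.64% of the Krt6a UMIs.

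**Figure D3:**
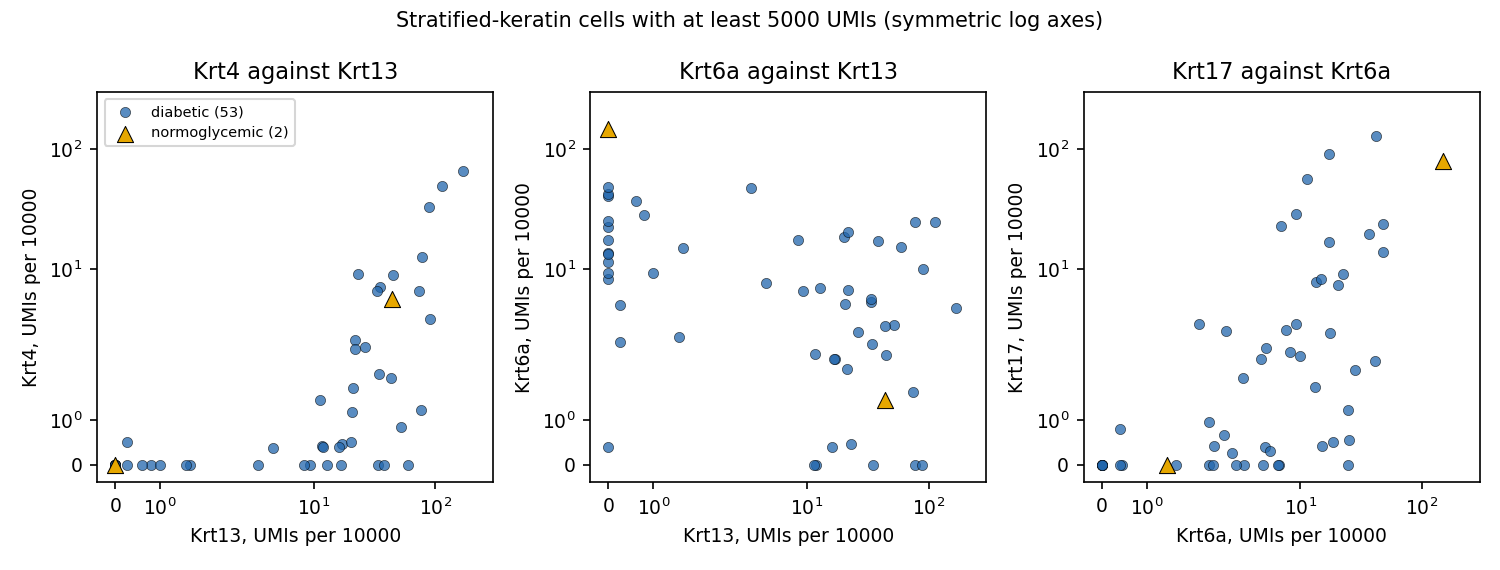
Krt4 against Krt13, Krt6a against Krt13, and Krt17 against Krt6a in the 53 diabetic (circles) and 2 normoglycemic (triangles) stratified-keratin cells with at least 5000 UMIs, in UMIs per 10000 on symmetric log axes. Krt4 is found almost only in cells with Krt13, and 1 normoglycemic cell lies above every diabetic cell in Krt6a at 149 per 10000.

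Krt13 ordered much of this variation. Over the 53 cells, as a description of cells that share a library, Krt13 went with its partner Krt4 (Spearman's rho 0.78, Pearson's r 0.81) and with Mt4 (0.65, 0.64), and against Krt6a (-0.38, -0.22) and Col17a1 (-0.41, -0.41). Krt6a went with Krt17 (0.64, 0.42), and Krt5 with Krt14 (0.51, 0.66). At 10 Krt13 UMIs per 10000, a line chosen after the values were seen, 30 cells lay above (lowest 11.3) and 23 below (highest 9.30). The line cuts a range and not a type, with 2 cells between 5 and 10 and 7 between 10 and 20. Of 2757 genes with 50 CPM in either set, 91 (3.3%) were at least 2-fold higher in the Krt13-high cells and 118 (4.28%) in the Krt13-low cells.

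Krt13-high cells carried more Krt4 and metallothionein RNA, while the suprabasal list as a whole was split. Of its 17 measured genes, Krt13 among them, 5 were at least 2-fold higher in the Krt13-high cells and 4 lower (median log2 ratio 0.31, against -0.08 over all genes). Krt4 was at 709 against 4.59 CPM in Krt13-low cells, and reached 1 UMI per 10000 in 19 of 30 against 0 of 23 cells. Mt4 was at 3823 against 746 CPM and reached 10 per 10000 in 22 of 30 against 5 of 23. Mt3 was at 1104 against 305 CPM, Calml3, a calmodulin-like protein of differentiating epithelium, at 341 against 68.9, the imprinted RNA H19 at 227 against 21.4 and Ifi27l2a at 434 against 52.1, or 215 without 1 cell that held 53.3% of its UMIs. Krtdap, a gene of differentiating keratinocytes, went the other way, at 187 against 379.7 CPM, the latter 280 without 1 cell. Krt15 was also higher, at 1621 against 669 CPM, a keratin known mainly from basal cells.

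Krt13-low cells carried more RNA of Krt17 and Krt6a but not clearly of Krt16. Krt17 was at 1672 CPM in them against 279, and at 979.8 without 1 cell that held 489 of its 1092 UMIs there. Krt6a was at 1819 against 701 CPM, reaching 10 per 10000 in 14 of 23 against 7 of 30 cells. Krt16 was at 306 against 241 CPM, and 239 without 1 cell, and had a UMI in 11 of 23 and 14 of 30 cells. Anxa1 (annexin A1) was at 1430.01 against 599 CPM, the redox protein gene Txn1 at 3664 against 1811 and Tgfbi at 268 against 99.7. Without the Krt13-low cell with the most UMIs of each gene, these ratios were 1.90, 1.73 and 2.46. S100a8, part of calprotectin, was at 793 against 70.9 CPM, or 489 without 1 cell. All 3 deep cells with at least 10 S100a8 UMIs per 10000 were Krt13-low. Mki67 stood at 245 against 94.2 CPM, but reached 1 per 10000 in 4 of 23 against 7 of 30 cells, so the share of cells does not follow the pooled level. Cdo1 (266 against 12.2 CPM) came mostly from 1 cell, with 121 of 193 UMIs of all members.

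The 27 shallow stratified-keratin cells differed from the deep ones in many pooled levels. Of 3332 genes 1051 (31.5%) were at least 2-fold higher in the shallow cells and 542 (16.3%) lower, with a median log2 ratio of 0.28. The shallow cells held 30484 UMIs in all, so that 2 UMIs of a gene made 65.6 CPM and passed the minimum of 50 CPM. These counts of genes therefore cannot be separated from depth. All 10 leukocyte markers were among the higher genes. Il1b stood at 4527 against 47.6 CPM, Srgn at 2362 against 33.4 and Cd74 at 1411 against 28.9, but 1 cell held 106 of the 138 Il1b UMIs and 51 of the 72 Srgn UMIs, and another 30 of the 43 Cd74 UMIs. Without the cell with the most UMIs of each gene, an alternative added after the data were seen, they stood at 1163, 763 and 438 CPM in the shallow cells. The other values rest on few UMIs too: H2-Aa was at 722 against 7.71 CPM on 22 UMIs, C1qa at 656 against 9.0 on 20, and Bpifa2, a secretory product of salivary glands, at 722 against 9.0 on 22. Epithelial lists were mixed: of the basal layer list 1 gene was at least 2-fold higher and 6 lower of 12 measured (median log2 ratio -0.99), of the suprabasal and cornifying list 3 higher and 3 lower of 19 (-0.16, against 0.28 over all genes), and of the desmosome list none higher and 5 lower of 8 (-1.50). Itga6 had no UMI in the shallow cells and 359 CPM in the deep ones, and Krt15 was at 262 against 1221, whereas Krt5 (3510.04 against 4956 CPM) and Lgals7 (4921 against 5705) differed by less than 2-fold. Krt17 stood at 1575 against 864 CPM and Krt4 at 820.1 against 413, yet 21 of the 25 Krt4 UMIs came from 1 cell. Neutrophil markers summed to 4625 CPM in the shallow and 715 in the deep cells, with none of 10 at 0 in either. A single shallow cell held 45 of the 85 S100a9 UMIs of the shallow cells. The part of shared or free RNA in these values was not tested.

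The 14 Dcpp-positive simple-keratin cells devoted much of their captured RNA to the Dcpp genes. Dcpp1, Dcpp2 and Dcpp3 together took 2.68% of UMIs in the lowest cell, 46.4% in the median cell and 70.2% in the highest, and at least 35% in 12 of 14 cells. In the stratified-keratin cells they took 0.0138% of the pooled UMIs. Dcpp1 was at 249697 CPM (per 10000 UMIs 102, 2210 and 2977 in the lowest, median and highest cell), Dcpp3 at 193784 (102, 1689 and 2661) and Dcpp2 at 117284 (63.0, 1001 and 1813). These cells were deep, with 2539 to 62450 UMIs and a median of 24082.5.

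Other secreted products were abundant beside them. Wfdc18, a small protein with a whey acidic protein core domain, was at 85056 CPM and was found in 13 of 14 cells (per 10000 UMIs 0, 511 and 1500.02 in the lowest, median and highest cell). Bpifa2, a secreted protein of salivary glands, was at 23854 CPM in 13 cells (0, 119 and 563), lactoferrin (Ltf) at 4264 CPM, and Dmbt1, a mucosal scavenger protein, at 3767 CPM in all 14. The chemokine Cxcl17 was at 321 CPM and Pigr, the receptor that carries IgA across epithelia, at 386. Wfdc12 was at 1551 CPM, but 1 cell held 525 of its 571 UMIs and the median cell had 0.337 per 10000. In the mucous cells Wfdc12 was higher, at 27552 CPM. The cells were uneven in these products: the deepest cell, with 62450 UMIs, had 1 Bpifa2 UMI beside 858 of Dmbt1, 696 of Ltf and 525 of Wfdc12. That cell also had 568 S100a8 UMIs, 47.1% of the S100a8 UMIs of all members. Among the 14 cells it held 539 of the 565 S100a9 UMIs, 128 of the 143 Il1b UMIs and 39 of the 48 Srgn UMIs. Whether leukocyte RNA was mixed into this cell was not tested.

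Krt8 and Krt18, which helped to choose the cells, were both present in all 14. Krt8 was at 2295 CPM (per 10000 UMIs 3.94, 16.3 and 83.8) and Krt18 at 2273 (10.7, 17.1 and 67.2), whereas Krt7 (73.3 CPM) and Krt19 (35.3 CPM) were each found in 6 cells. Krt5 had no UMI and Krt14 had 4 in all. Epcam, an adhesion molecule of simple epithelia, was at 1095 CPM in 13 cells. All 18 measured genes of the simple and ductal list were at least 4-fold higher than in the other diabetic cells, with a median log2 ratio of 4.72. This list holds Krt7, Krt8, Krt18 and Krt19, which helped to choose the cells. The claudins Cldn4 (394 CPM, in 6 cells), Cldn3 (388) and Cldn7 (249.9 CPM) were part of it, and the transcription factor Ehf (424 CPM) was in all 14 cells.

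Because Dcpp RNA took 56.1% of the pooled UMIs, every other gene was pressed down on the CPM scale, and the median log2 ratio of all genes to the other diabetic cells was -1.36. On that scale 264 of 5433 genes (4.86%) were at least 4-fold higher and 1888 (34.8%) lower. With Dcpp1, Dcpp2 and Dcpp3 left out of all totals, an alternative added after the data were seen, 834 of 6383 were higher and 1053 lower, and the median was 0.07. The simple and ductal list, which holds simple keratins of the rule, then had 20 of 20 higher (median 5.61). The desmosome list had 7 of 7 higher (5.48), the epithelial transcription factors 13 of 14 (5.15) and the adherens, tight and gap junction list 16 of 19 (4.21). The unfolded protein response list had none of 20 beyond 4-fold in either direction (median 0.32). MHC class II genes were lower on both scales, 7 of 7, with medians of -5.64 and -4.46.

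Markers of salivary cell types were present only in part, and no cell type is assigned. All 8 measured genes of the serous acinar list were higher (median log2 ratio 6.28), but 10 of its 24 genes found in the annotation were at 0, among them the peroxidase Lpo, Prol1, Pip, Smr3a and the secreted carbonic anhydrase Car6. With the Dcpp genes left out, 5 of 7 measured genes of the list were higher (median 4.56). The water channel Aqp5 was at 19 CPM against 14 in the other cells, and Bhlha15 (Mist1), a factor of secretory cells, at 2.72. Sox10 (21.7 CPM) and Folr1 (35.3 CPM) were found in 6 and 7 cells. Of the 19 salivary duct genes 16 were at 0. No Mki67 or Top2a UMI was found in the 14 cells, which allows a share of up to 21.4% of cells with a UMI and sets no limit on expression below detection.

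Set beside the stratified-keratin cells, the 17 simple-keratin cells gave 118 of 2592 genes (4.55%) at least 4-fold higher and 893 (34.5%) lower, with a median of -1.50. With Dcpp1, Dcpp2 and Dcpp3 left out of the totals the counts were 417 higher and 384 lower of 3236 (median -0.04), so lower genes did not outnumber higher ones on that scale. The ratio was 7074 for Wfdc18 (4475 to 11938), 993 for Bpifa2 (717 to 1419) and 272 for Krt18 (158 to 513). Krt5, Krt8 and Krt18 were among the keratins that split the groups, so the direction of their ratios was fixed by the split. Genes at 0 in one group give bounds at a floor of 3 counts over that group. For the 14 Dcpp-positive cells, Krt8 was at least 1214-fold, Cldn3 at least 205-fold and Pigr at least 204-fold higher than in the stratified-keratin cells. In the other direction Lgals7 was at least 698-fold, Krt5 at least 605-fold, Krt13 at least 314-fold, Mt4 at least 313-fold and Krt15 at least 148-fold lower in the Dcpp-positive cells.

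Mucous cells of the same library are the nearest relatives by secretion, and the comparison shows products that differed in level. Of 2554 genes 38 (1.49%) were at least 4-fold higher in Dcpp-positive cells and 936 (36.6%) lower, against a median of -1.64. Dcpp2 was 931-fold higher (704 to 1258), Dcpp1 433-fold (380 to 496) and Dcpp3 50.9-fold, in cells chosen by their Dcpp share. Dcpp3 was at 3809 CPM in the mucous cells, with a UMI in 73.8% of them. Bpifa2 was 244-fold and Dmbt1 77.1-fold higher, while Wfdc18 was 10.6-fold higher. The mucin genes Muc5b (20585 CPM in mucous cells) and Muc19 (4403 CPM) and the zymogen granule gene Gp2 (4791 CPM) had no UMI in the Dcpp-positive cells, though mucous genes were capped by the rule. Tff2, a trefoil peptide, was at 13.6 against 14886 CPM and Bpifb2 at 13.6 against 9961.

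The other 3 simple-keratin cells were unlike each other. A cell with 1399 UMIs had 7 Krt8 and 2 Krt18 UMIs with 10 of Bpifa2, 7 of Dcpp3 and 6 of Dmbt1. A cell with 7575 UMIs had 8 Krt7, 8 Krt8 and 16 Krt18 UMIs together with 30 of Lgals7. The remaining cell, with 13026 UMIs, had 139 of Krt7, 64 of Krt19, 14 of Krt18 and none of Krt8, along with 377 of Ltf, 63 of Krt6a, 26 of Krt13 and 19 of Krt5. Markers of stratified and simple epithelium thus met in both deeper cells, as Lgals7 in the former and as Krt5, Krt6a and Krt13 in the latter.

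**Figure D4:**
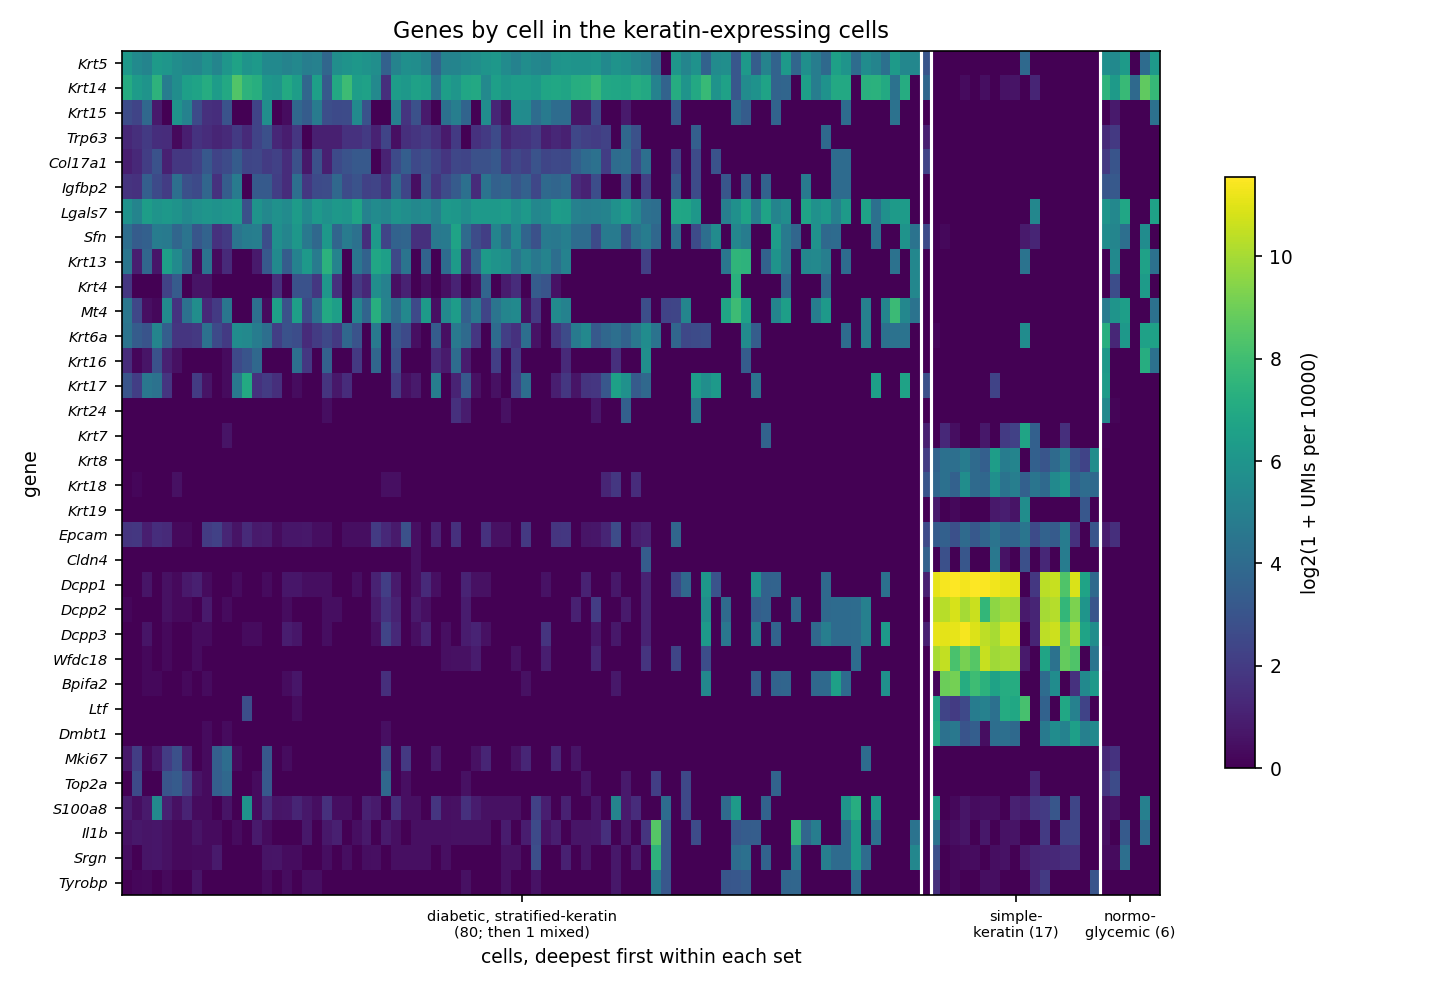
Expression of the named genes, as log2(1 + UMIs per 10000), in each of the 104 cells, deepest first within each set and divided by white lines. The 80 stratified-keratin cells carry Krt5, Krt14 and Lgals7, the simple-keratin cells carry Krt8, Krt18, the Dcpp genes and Wfdc18, and the 6 normoglycemic cells at the right resemble the former; the shallow cells of each set show fewer genes.

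Cells rich in Dcpp RNA also lay outside the rule, so its 14 cells are not all of them. In the diabetic library 24 cells drew at least 25% of their UMIs from the Dcpp genes, 12 of them members. The other 12 all missed the keratin minimum, with 0 to 8.76 keratin UMIs per 10000 (median 1.95), and 11 of them had a Krt8 or Krt18 UMI. They were deeper than the members, with a median of 51130 UMIs, and 4 would reach 10 keratin UMIs per 10000 if Dcpp UMIs were left out. No normoglycemic cell reached 25%. Dcpp RNA in leukocytes differed as well: Dcpp1 was seen in 43.7% of diabetic and 0.267% of normoglycemic leukocytes, and the source of those UMIs was not tested.

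The 6 normoglycemic members were 4 shallow cells of 527, 625, 688 and 1149 UMIs and 2 deep cells of 75888 and 104765. In that order they held 4, 1, 0, 9, 333 and 556 Krt5 UMIs and 11, 26, 1, 25, 585 and 1867 Krt14 UMIs. Krt13 had 1, 6, 0, 0, 335 and 0 UMIs, and Krt6a 5, 6, 0, 8, 11 and 1556. The deep cells were thus of unlike kinds, 1 with Krt13 and almost no Krt6a and 1 with Krt6a and no Krt13. The deepest cell also had 835 Krt17, 746 Krt16, 453 Krt24 and 219 Krt6b UMIs, of which the cell of 75888 UMIs had 0, 0, 1 and 0.

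Placed among the 53 deep diabetic stratified-keratin cells, the cell of 75888 UMIs lay within their range for each of the genes followed per cell. The deepest cell lay above the range for Krt6a, at 149 per 10000 against a highest diabetic value of 47.9, for Krt16, at 71.2 against 51.1, for Krt24, at 43.2 against 10.6, for Krt6b, at 20.9 against 15.4, and for Krt76, at 18.8 against 3.81. It lay inside for Krt5, Krt14, Lgals7, Sfn, Krt17 and Trp63. The 2 deep normoglycemic cells thus lay within the diabetic range in all followed genes but these 5, and there only 1 cell departed. For most of the genes the lowest diabetic value was 0, so a low value could not fall outside the range. The shallow normoglycemic cells were not placed in this way.

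Pooled levels between the libraries follow from those few cells. For all members, 149 of 2721 genes with 50 CPM in either library (5.48%) were at least 2-fold higher in diabetic members and 384 (14.1%) lower. No Dcpp1, Dcpp2, Dcpp3, Bpifa2, Krt8 or Krt18 UMI was found among 183642 normoglycemic UMIs, where a count of 0 allows up to 16.3 CPM. At that floor Dcpp1 was at least 2836-fold and Bpifa2 at least 272-fold higher in the diabetic members, which restates that no Dcpp-positive cell was found there. With 6 cells, such cells could still make up to 50% of the normoglycemic members unseen.

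Restricted to stratified-keratin cells, 201 of 2819 genes (7.13%) were higher and 304 (10.8%) lower in the diabetic library. Krt5 was level, at 4928 against 4917 CPM, and Lgals7 had a ratio of 1.05. Krt6a stood at 1163 CPM in the diabetic and 8636 in the normoglycemic cells (ratio 0.135, 0.126 to 0.144), Krt16 at 264 against 4117 (0.0642) and Krt24 at 17.7 against 2472 (0.00714). Without the deepest normoglycemic cell these ratios became 3.06, 2.08 and 1.39, the last against 1 UMI, so their direction rests on that cell. Krt14 had a ratio of 0.740 with all cells, 1.23 without that cell and 0.566 without the cell of 75888 UMIs. Krt13 rests on the other deep cell, which held 335 of the 342 normoglycemic UMIs: its ratio was 1.37 with all cells, 0.590 without the deepest cell and 39.4 without the cell of 75888 UMIs.

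Some ratios kept their direction without the deepest cell. Krt15 was at 1203 against 38.1 CPM (31.6, 15.3 to 78.6), and 13.6 without the deepest cell, on 7 normoglycemic UMIs in all. Ifitm3 was at 1198 against 294 CPM (4.07, and 3.15 without it), Ifi27l2a at 273 against 43.6 (6.27 and 3.59), the cyclin gene Ccnd1 at 293 against 65.3 (4.49 and 4.62) and Klf4 at 232 against 860.4 (0.270 and 0.282). A single diabetic cell held 209 of the 433 diabetic Ifi27l2a UMIs, and the ratio without that cell was not computed. S100a8 was at 389 against 54.5 CPM (7.14 and 5.11), but 1 diabetic cell held 217 of the 617 diabetic UMIs. Its median in the deep diabetic cells was 0.448 per 10000 UMIs, between the 0.527 and 0.382 of the 2 deep normoglycemic cells. The pooled S100a8 ratio thus does not describe a typical deep cell. Neutrophil markers summed to 715 CPM in the deep diabetic stratified-keratin cells and 196 CPM in the normoglycemic members, with 0 and 4 of 10 markers at 0. Each of these ratios sets 80 cells of 1 pool against 6 of another and has no replicate check. Of the 183642 normoglycemic UMIs, 180653 came from the 2 deep cells. Without the deepest cell, the cell of 75888 UMIs was the only deep one left, so the ratios then rest mainly on 1 cell.

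Sex-linked transcripts divided the cells as well; the labels do not give the sex of the mice. Cells were called by Xist, expressed from the inactive X of females, and by Y-linked genes. All 13 Dcpp-positive cells that could be called had Xist alone (exact interval 75.3 to 100%), as did 33 of 52 stratified-keratin cells (63.5%, 49.0 to 76.4%), and 1177 of 3799 diabetic leukocytes (31.0%). Among deep cells Xist alone was seen in 17 of 30 Krt13-high cells and 15 of 21 Krt13-low cells called. Both deep normoglycemic cells had Y-linked RNA alone, and Xist, at 426 CPM in the diabetic stratified-keratin cells, had no UMI in the normoglycemic members. How many of the 4 pooled mice gave each group of cells was not tested, and animal and condition cannot be told apart for the 2 deep normoglycemic cells.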

How the data were processed

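The authors deposited raw UMI counts per gene and cell for each library, made with Cell Ranger on build mm10 per the submitters' processing notes. Those notes give version 6.0.2, whereas 4.0.0 stands in the file headers. The annotation release is not given in the sources used here. Kept cells had at least 500 UMIs, 200 genes and at most 15% mitochondrial UMIs, which left 10260 diabetic (median 4631.5 UMIs) and 10948 normoglycemic cells (5302.5). From the counts, pooled counts per 1000000 UMIs (CPM), exact conditional binomial intervals of ratios and log2 ratios with 0.5 counts added were computed (Python 3.11.15, numpy 2.4.6, scipy 1.17.1, pandas 2.3.3) and tested on simulated data. Levels are UMIs and not scaled by gene length. No doublet caller was run, and doublets may remain; 1 of 98 diabetic members lay between the keratin groups. Members, gene lists and comparisons were chosen with earlier results of these data known. Named genes were those with the interval bound farthest from 1 at 200 CPM or more and in at least 20% of cells, all keratins of the members, and the top genes of each list; values at particular cells were chosen after they were seen. Loricrin, Zg16b, Barttin, Scpppq1 and Mmp1a were not found under these names. The alternatives tried are described at the end. Promoter windows came from RefSeq.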

Additional observations from a re-analysis of the deposited data

How the results depend on the processing

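Depth limits the low genes of the shallow cells, and the single library a condition limits everything between libraries. The member count ran from 82 to 121 in the diabetic and 3 to 7 in the normoglycemic library over the filters tried. A keratin minimum of 5 per 10000 gave a diabetic share of 1.18% and a difference of 1.12 points. Equal weight for every cell gave 905 genes higher in members than in other cells, 448 higher in simple-keratin cells, and 1276 higher and 850 lower between libraries. Without the 10% of members with the most UMIs, 196 genes were higher in simple-keratin cells, and 276 higher and 650 lower between libraries. Without a CPM minimum 5840 genes were higher and 2565 lower in members than in the other diabetic cells. At 200 CPM 41 were higher and 88 lower between libraries. The minimum sets how many genes are tested. Leaving Dcpp UMIs out of the totals gave 417 higher and 384 lower in simple-keratin cells. Signs turned, as log2 ratios, between libraries without the 10% deepest members, which removes the deepest normoglycemic cell (Krt6a 1.36, Krt16 0.92, Krt24 0.045, Itpkc 1.68), and with equal weight (Itpkc 0.18; the cause was not tested). Against other cells they turned when only stratified-keratin members were used (Krt8 -5.26, Krt18 -1.21, Dcpp1 -5.43, Wfdc18 -5.43). Of 287 list medians recomputed 30 moved, and none whose main log2 median was at least 1 in size changed sign. For lists and genes alike, sign changes from a smaller main value were not counted. No paired analysis was possible because each group has 1 library.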
